A study of Bos taurus
Mus musculus with 10 samples.

Results

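The bovine HOX genes were taken by symbol: HOX followed by A, B, C or D and a number, with antisense genes left out. The RefSeq gene table used for names holds 39 such genes, and 34 of them had a row among the 27590 gene IDs of the bovine table, of which 33 are described. The members HOXA13, HOXB13, HOXC11, HOXC12 and HOXD12 were not analysed here. Of the 33, 15 had a normalised read count of at least 10 in at least 5 libraries and entered the test across genes. The other 18 fell below that filter and are given by their reads.

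The study profiled poly(A) RNA from 5 bovine embryonic stem cell lines, numbered 1, 2, 4, 8 and 11 and derived from day 7.5 blastocysts. The cells grew in mTeSR1, a defined stem cell medium, on mouse feeder fibroblasts from E13.5 CD-1 fetuses that had been arrested with mitomycin-C for 2 h. Each line was split over a well with 2.5 µM IWR-1, a blocker of tankyrase that keeps AXIN stable and lowers Wnt/beta-catenin signalling (group IWR, 5 wells), and a well from which IWR-1 was removed for 1 day (group IWRR, 5 wells). All wells are wild type, and every library holds stem cells and feeder cells together. Bovine reads per library ran from 48064953 to 64345738. The mouse share of the assigned reads was 41.4% to 42.3% in line 4 and 21.2% to 33.3% in the other lines. Each line gives 1 well per medium, so p-values of the main test are set against how much the difference between media varied over these lines.

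HOX genes encode homeodomain transcription factors that give cells their position along the head to tail axis of the embryo. They lie in clusters in which the low-numbered (anterior) paralogues are switched on first and nearest the head, and the high-numbered (posterior) paralogues later and nearest the tail. Polycomb complexes hold the clusters silent in pluripotent cells, while retinoic acid, Wnt signalling and CDX factors help to open them in the embryo, and HOX proteins bind DNA together with PBX and MEIS partners.

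The HOX genes fell into 2 patterns across the wells. The anterior genes HOXA2, HOXA3, HOXB1, HOXB2 and HOXB3 were read almost only in line 4. The other 28 members, as a sum, were read in every line at low counts. In each medium their sum was highest in line 4 and then in line 11, as was the mouse share. The change in medium moved no tested HOX gene past the threshold.

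By cluster, 9 described members were of HOXA and 2 passed the filter, 9 of HOXB and 4 passed, 7 of HOXC and 6 passed, and 8 of HOXD and 3 passed. By position, 3 of 11 anterior members (groups 1 to 4), 7 of 11 central members (groups 5 to 8) and 5 of 11 posterior members (groups 9 to 13) passed. Among the members below the filter, HOXA4, HOXB7, HOXD4, HOXD9, HOXD11 and HOXD13 had 6, 5, 1, 1, 3 and 3 reads over all 10 wells. HOXA6, HOXA7, HOXA9, HOXA10, HOXB8 and HOXD1 reached at most 11.5 normalised reads in any well. Levels are not compared between genes, since transcript lengths were not used.

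**Figure D1:**
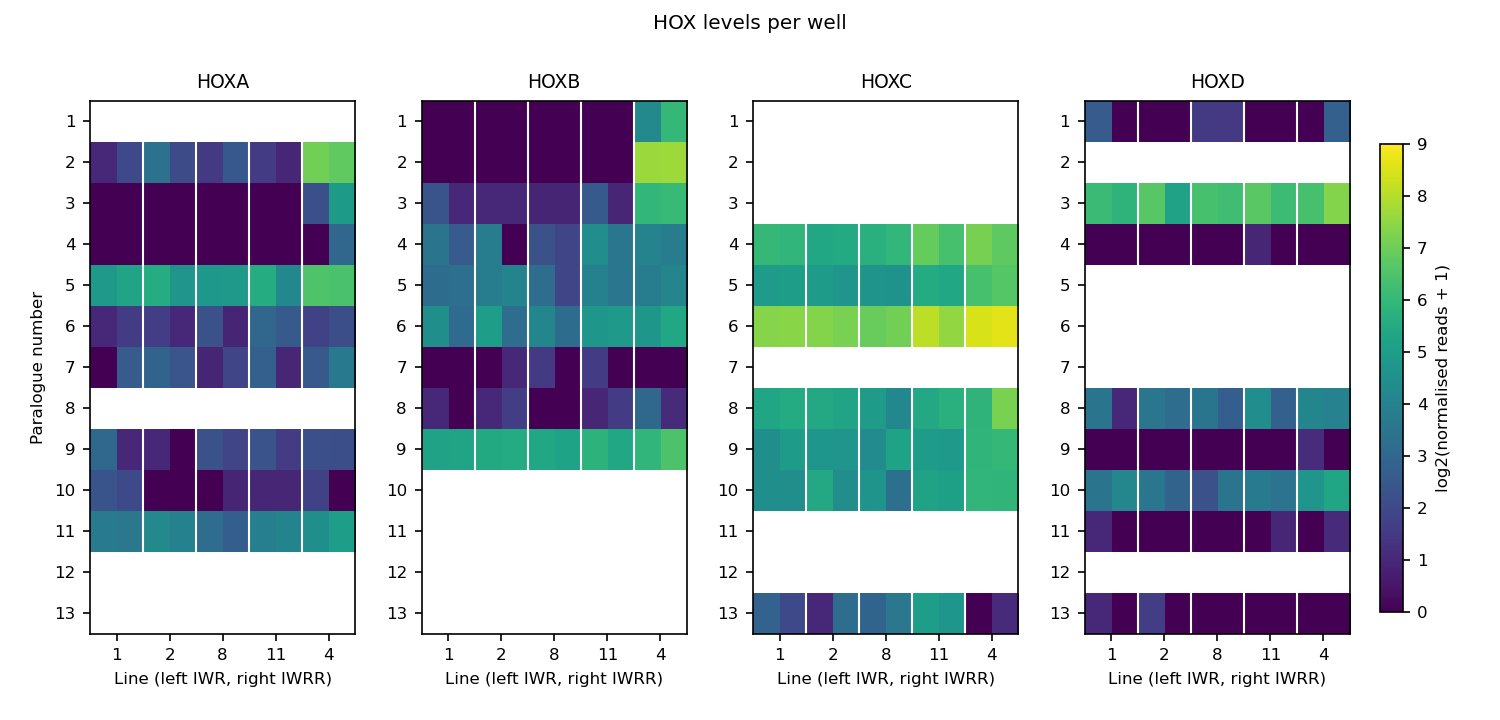
Level of each HOX gene (rows, by paralogue number) in each well (columns, by line, IWR left and IWRR right), 1 panel per cluster, as log2(normalised reads + 1); white marks a paralogue not analysed here or absent from the cluster. HOXA2, HOXA3 and HOXB1 to HOXB3 stand out in line 4, while HOXC4 to HOXC10 are read in all 5 lines.

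The first pattern was the anterior end of HOXA and HOXB. HOXB2 (gene ID 616129), which acts in hindbrain segment identity, stood at 199.9 normalised reads in line 4 with IWR-1 and 207 without it (168 and 179 reads), and at 0 in the 8 other wells. HOXB1 (528429), a hindbrain gene and a direct retinoic acid target, stood at 17.8 and 62.3 in line 4 (15 and 54 reads) and at 0 elsewhere. For both genes the wells of line 4 lay above all other wells in both media.

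HOXA3 (509991), a gene of the pharyngeal region, had 3 and 25 reads in line 4 and none elsewhere. Set against a floor of 3 reads in each of the other libraries, line 4 without IWR-1 was at least 66.0-fold higher for HOXB2, 19.9-fold for HOXB1 and 9.22-fold for HOXA3. With IWR-1 the bound was 63.4-fold for HOXB2 and 5.66-fold for HOXB1, while the 3 reads of HOXA3 were at the floor and give no fold. The floor covers counting error only. A tally chosen after the values were seen found 3 of 33 members (HOXA3, HOXB1 and HOXB2) with at least 8 reads over the line 4 wells and 0 in the 8 other wells, against 38 of 27590 bovine genes (0.138%).

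HOXA2 (524150), which patterns the branchial arches, was read in all lines. Its normalised reads with IWR-1 were 1.01, 9.46, 133, 1.85 and 1.94 in lines 1, 2, 4, 8 and 11, and 2.96, 3.13, 110, 4.53 and 0.97 without it. HOXB3 (618214) gave 4.05, 1.05, 61.9, 0.93 and 4.86 with IWR-1 and 0.99, 1.04, 66.9, 0.91 and 0.97 without it. Line 4 was far above the others for both genes in both media, and the other lines lay at counts of 1 to 9 reads. The summed level of HOXA2, HOXA3 and HOXB1 to HOXB3 was 416 and 474 in line 4 and 1.95 to 10.5 in the 8 other wells.

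The anterior members of the other clusters did not share this pattern. HOXD1 had 0 and 5 reads in line 4 and 0 to 5 in the others. HOXD3, of the same group as HOXA3 and HOXB3, was read in every well, at 68.8, 101, 82.1, 83.3 and 103 with IWR-1 and 57.1, 35.5, 159, 74.4 and 71.0 without it. Line 4 lay within the other lines with IWR-1 and above them without it. RefSeq gene spans overlap for HOXA3 to HOXA6, HOXB3 to HOXB6, HOXB8 with HOXB9, HOXD3 with HOXD4 and HOXD10 with HOXD11, and a strand setting for the counting was not given in the sources used here. Reads of overlapping or antisense genes of the clusters therefore cannot be told apart.

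Within line 4 the anterior genes differed between the media in unequal amounts, in 1 well each with no replicate check. The ratio without over with IWR-1 was 3.49 for HOXB1 (95% exact binomial interval of the reads 1.94 to 6.66, counting error only) and 8.08 for HOXA3 (2.47 to 41.8, from a base of 3 reads). HOXB2 at 1.03 (0.83 to 1.28), HOXB3 at 1.08 (0.73 to 1.60) and HOXA2 at 0.82 (0.62 to 1.09) had intervals that include equal levels.

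Further along the clusters, HOXC8 was 2.57-fold higher without IWR-1 in line 4 (1.83 to 3.66) and HOXD3 1.94-fold (1.44 to 2.63). HOXA7, with 4 and 10 reads, had a ratio of 2.42 and an interval of 0.70 to 10.6. Of 21 members with at least 8 reads over the line 4 wells, 4 were at least 2-fold higher without IWR-1, where 4.24% of 20494 genes were. At least 2-fold lower were 0 members, where 823 of the 20494 genes were. HOXA3 (3 and 25 reads) and HOXA7 reached 8 reads only through the well without IWR-1. Of the 20494 genes, 14899 had at least 100 reads over these wells, so the shares are not matched for counts.

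Another 3 genes of the early posterior embryo, picked after their values were seen, are given for the same wells. EVX1, a homeobox gene at the end of the HOXA cluster, had 6 reads in line 4 with IWR-1 and 106 without it (ratio 17.1, 7.62 to 47.7). CDX2, a caudal-type activator of HOX genes that also marks trophectoderm, had 1 and 75 reads there (ratio 72.7, 12.7 to 2911). TBXT, the brachyury gene of the primitive streak, had 64 and 148 reads (ratio 2.24, 1.66 to 3.06). CDX2 and TBXT lay at 0 to 3.0 normalised reads in the 8 other wells, and EVX1 at 0 to 11.7. Of the 22 genes of the CDX, ParaHox and caudal lists with at least 8 reads in line 4, 10 were higher and 12 lower there without IWR-1. At least 2-fold higher were 6 of them (these 3 with CDX4, TBX6 and SP5), and 0 were at least 2-fold lower, where 868 and 823 of the 20494 genes were. CDX2 and EVX1 reached 8 reads only through the well without IWR-1.

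**Figure D2:**
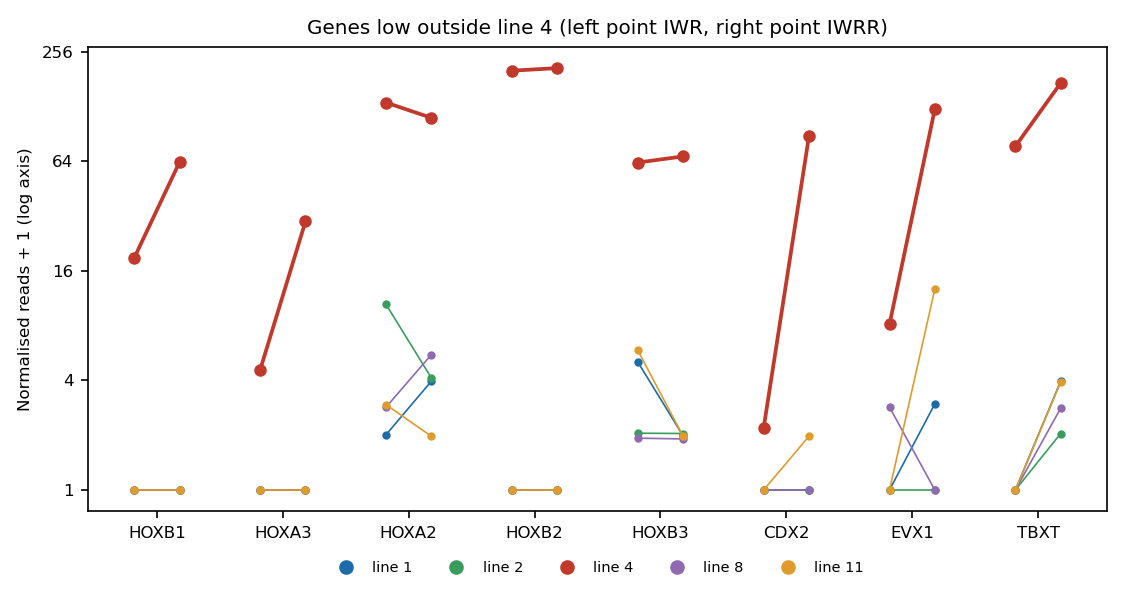
Normalised reads + 1 (log axis) of HOXB1, HOXA3, HOXA2, HOXB2, HOXB3, CDX2, EVX1 and TBXT in each line with and without IWR-1. Line 4 stands above the other lines for the HOX genes, and HOXB1 differs between its wells (17.8 and 62.3), while HOXB2 barely differs (199.9 and 207).

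The second pattern covered the central and posterior members, HOXC4 and HOXD3. HOXC6 (317660), a gene of the thoracic level, stood at 162, 161, 347, 119 and 271 normalised reads with IWR-1 in lines 1, 2, 4, 8 and 11, and at 169, 144, 399, 133 and 186 without it. The group means were 212 ± 94.2 and 206 ± 110 (SD, n = 5 each). Line 4 was highest in both media, line 8 lowest, and the groups overlapped.

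HOXC4 stood at 62.8, 41.0, 142, 50.9 and 118 with IWR-1 and at 59.1, 44.8, 108, 61.7 and 81.7 without it. HOXC5 gave 30.4, 29.4, 82.1, 24.1 and 45.7 and then 31.5, 25, 98.1, 23.6 and 39.9. HOXC8 gave 39.5, 42.0, 57.1, 29.6 and 41.8 and then 45.3, 37.5, 147, 17.2 and 51.6. The line order of HOXC6 recurred in part: line 4 led in both media for all 3, followed by line 11 except for HOXC8 with IWR-1.

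Of the central HOXA and HOXB genes, HOXA5, known from lung and trunk patterning, stood at 28.3, 46.2, 90.4, 26.9 and 46.6 with IWR-1 and at 37.4, 25, 85.4, 27.2 and 17.5 without it. HOXB5 gave 8.10, 12.6, 13.1, 8.33 and 14.6 and then 8.87, 15.6, 16.2, 2.72 and 10.7. HOXB6 gave 21.3, 31.5, 26.2, 16.7 and 26.2 and then 7.88, 8.34, 41.6, 8.16 and 27.2. Line 4 led clearly for HOXA5 in both media, while for HOXB5 and HOXB6 it led only without IWR-1 and the other lines lay close to it with IWR-1.

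The posterior members included HOXB9, HOXC9 and HOXC10, genes of the thoracic and lumbar levels. HOXB9 stood at 35.4, 43.1, 59.5, 40.7 and 55.4 with IWR-1 and at 37.4, 45.9, 87.7, 36.3 and 39.9 without it. HOXC10 gave 21.3, 42.0, 59.5, 24.1 and 35.0 and then 20.7, 20.9, 57.7, 9.07 and 34.1. Line 4 led for both genes in both media, by less than for the anterior genes. HOXC9 gave 21.3, 25.2, 58.3, 19.4 and 30.1 and then 29.6, 25, 63.5, 36.3 and 27.2. HOXA11, a gene of the forearm and uterus, gave 12.1, 17.9, 21.4, 8.33 and 13.6 and then 10.8, 14.6, 31.2, 5.44 and 15.6. HOXD10, a gene of the lumbar spinal cord and limb, gave 10.1, 10.5, 25, 3.70 and 11.7 and then 16.8, 6.26, 39.2, 9.98 and 9.73. These 3 genes too were highest in line 4 in both media.

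HOXC13, known from hair follicles and nails and read 96 times in all, did not follow that order. It stood at 6.07, 1.05, 0, 6.48 and 31.1 with IWR-1 and at 2.96, 8.34, 1.15, 10.9 and 25.3 without it. Line 11 was highest and line 4 lowest in both media. In total 15 of 33 members, and 10 of the 15 tested, were highest in line 4 in both media, where 19.1% of the 18506 tested bovine genes were.

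Summed by position, central members of line 4 stood at 647 and 818, and those of lines 1, 2, 8 and 11 at 221 to 482. Line 4 over the median of the other lines was 2.01 with IWR-1 and 2.82 without it. For posterior members the sums were 231 and 285 against 106 to 182, and the ratios 1.76 and 2.35. By cluster the ratios were 3.93 and 6.07 for HOXA, 4.41 and 7.38 for HOXB, 2.18 and 2.63 for HOXC, and 1.12 and 2.71 for HOXD. The excess of line 4 was thus larger in HOXA and HOXB, which hold HOXA2, HOXA3 and HOXB1 to HOXB3, than in HOXC and HOXD, a description of 1 line. HOXB4, also an anterior gene, was read in the other lines too.

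Between lines, the mouse reads of a well moved with the second pattern. Counted per 1000000 mouse reads of the same well, the posterior sum lay between 5.35 and 7.25 in all 10 wells, with a coefficient of variation (CV) of 11%, against 41.0% per 1000000 bovine reads. For the central sum the CV was 15.1% per mouse read (12.1 to 20.3 per 1000000) and 52.7% per bovine read. For HOXC it was 15.4% and 49.5%. For HOXA2, HOXA3 and HOXB1 to HOXB3 summed, the CV was 190.0% per mouse read and 201% per bovine read, so that the mouse reads did not level line 4 with the others there. Within lines 1, 4 and 8 the mouse reads and the posterior and HOXC sums differed in direction. Mouse reads per bovine read fell without IWR-1 (ratios 0.88, 0.96 and 0.79), while the posterior sum (1.02, 1.23 and 1.05) and HOXC (1.05, 1.17 and 1.07) rose. The central sum rose in lines 1 and 4 (1.02 and 1.26) but fell in line 8 (0.92). The posterior rises in lines 1 and 8 were small, at 118 and 124 reads and at 115 and 123 reads, in 1 well per medium. In lines 2 and 11 all of these sums and the mouse reads per bovine read fell.

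**Figure D3:**
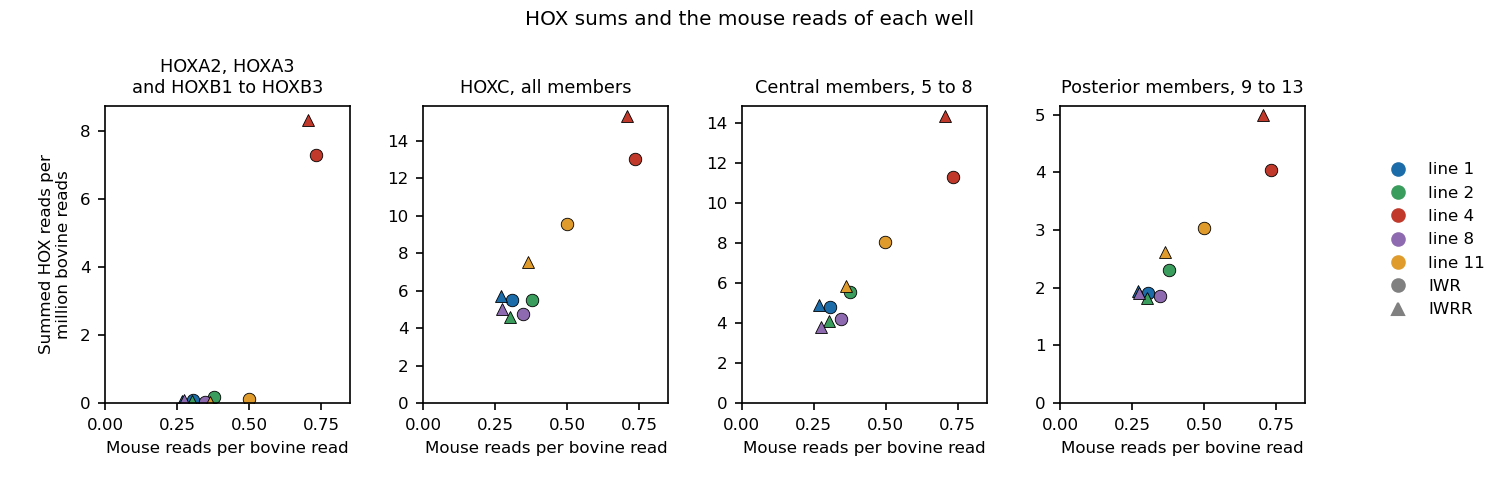
Summed HOX reads per 1000000 bovine reads against mouse reads per bovine read for the 10 wells (circles IWR, triangles IWRR), in panels for HOXA2, HOXA3 and HOXB1 to HOXB3, HOXC, central and posterior members. In each medium HOXC, central and posterior sums are largest in line 4 and then in line 11, as are the mouse reads per bovine read. The first panel is near 0 in all wells but those of line 4.

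Single genes behaved alike. HOXC6 lay at 6.00 to 10.1 reads per 1000000 mouse reads, with a CV of 15.5% against 49.8% per bovine read. HOXB9 lay at 1.42 to 2.29, with a CV of 13.7% against 36.8%, and its counting error alone would give 14.6%. All 14 tested members with at least 100 reads varied less per mouse read than per bovine read, as did 19.0% of the 18716 bovine genes with that many reads. Their median CV was 27.5% per mouse read and 52.8% per bovine read, where the medians over all those genes were 38.2% and 24.0%.

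Without line 4, 11 of these 14 members still varied less per mouse read (21.9% of genes did), the exceptions being HOXC8, HOXC9 and HOXD10. The mean of line 4 over that of the others ran from 1.54 to 3.49 per bovine read in the 14 genes and from 0.74 to 1.59 per mouse read. This comparison was chosen after the values were seen and carries no test. The handling of reads that fit both the cow and the mouse genome was not given in the sources used here. Mouse genes are not named here, so whether feeder RNA or more of a bovine cell type accounts for these reads was not tested. In bulk wells, more cells of a type and more RNA per cell cannot be told apart.

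**Figure D4:**
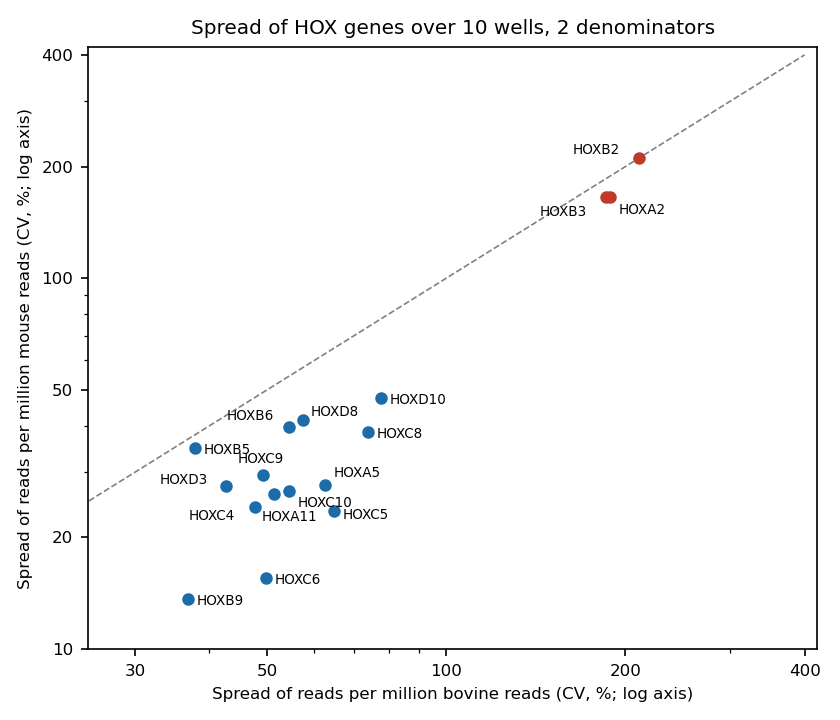
CV over the 10 wells (percent, log axes) of the 17 HOX genes with at least 100 reads, per 1000000 bovine reads (x) and per 1000000 mouse reads (y); the dashed line marks equal values. The 14 tested members (blue) lie below the line. Of the 3 genes that did not pass the filter (red), HOXA2 and HOXB3 lie below the line too, and HOXB2 lies on it, at a CV of 211% on both axes.

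Bovine fibroblast and mesenchyme markers also moved with line 4: 21 of 23 were highest there in both media, and their sum was 361976 to 398644 normalised reads against 73085 to 206117. Neural and neural crest markers summed to 11298 to 11690 against 791 to 7997, with 10 of 12 highest in line 4. Pluripotency markers summed to 120162 to 121583 against 140267 to 234518, with 1 of 13 highest and 6 lowest in line 4. Trophectoderm markers summed to 5351 to 10845 against 15968 to 68646, with 3 of 12 highest and 4 lowest in line 4. Endoderm markers summed to 6549 to 6707 against 1077 to 2155, with 5 of 10 highest and 1 lowest there. Mesoderm markers, at 2682 to 2773, lay within the 1326 to 3128 of the other wells as a sum, though 9 of 16 were highest and 1 lowest in line 4. These counts include markers that were not tested. Over all tested bovine genes, 19.1% were highest in line 4 in both media. Of tested markers, 20 of 22 fibroblast, 6 of 8 neural, 1 of 12 pluripotency and 1 of 6 trophectoderm genes were. So were 3 of 6 tested endoderm and 5 of 9 tested mesoderm genes. Among endoderm and mesoderm markers SOX17, HNF4A, GATA4 and FOXF1 were at 0 in line 4. The part of these cell types in the HOX values was not tested.

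Removal of IWR-1 was then tested over the 5 lines, with line as a block. None of the 15 tested HOX genes passed a limma adjusted p of 0.05, and edgeR called 0 as well. By limma 0.951% of the 18506 genes passed (176), and 0.0648% did so as lower. DESeq2 also called 0, but gave no adjusted p for HOXA11, HOXB4, HOXB5, HOXB6, HOXC9, HOXC10, HOXD8 and HOXD10, so it could not call these. At an unadjusted p under 0.05 there were 2 HOX genes by limma, both lower without IWR-1 (3.78% of all tested genes were), 1 by edgeR and 0 by DESeq2. The median log2 difference, IWRR minus IWR, was -0.12 over the HOX genes and -0.00 over all tested genes. Values were below 0 for 11 HOX genes and above 0 for 4.

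HOXB4, a gene known for its effect on blood stem cells, stood at 10.1, 12.6, 15.5, 3.70 and 20.4 normalised reads with IWR-1 in lines 1, 2, 4, 8 and 11, and at 4.93, 0, 12.7, 2.72 and 10.7 without it. Each line was lower without IWR-1, though the groups overlapped. The log2 difference was -1.23 ± 0.54 (SE, limma adjusted p = 0.487).

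HOXD8, a central HOXD gene of the trunk, stood at 10.1, 10.5, 16.7, 10.2 and 20.4 and then at 0.99, 8.34, 15, 5.44 and 5.84. It too was lower in each line, at -1.07 ± 0.43 (SE, limma adjusted p = 0.424). With HOXC10 (-0.48 ± 0.27, limma adjusted p = 0.644), 3 of 15 HOX genes were lower in 5 of 5 lines and 0 were higher in 5 of 5. The shares over all tested genes were 4.92% lower and 6.2% higher. HOXB4 and HOXD8 rest on 90 and 100 reads over the 10 wells. HOXC10 had the same reads in both media in line 1 (21 and 21) and line 4 (50 and 50). Its lower values there come from the size factors alone, and line 11 had 36 and 35 reads.

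For the other 12 genes the difference ranged from -0.67 ± 0.37 (HOXB6) to 0.32 ± 0.37 (HOXD10), with HOXC6 at -0.06 ± 0.13 and HOXB9 at 0.02 ± 0.20. Lines differed in direction. The median over the 15 genes was 0.05 in line 1, -0.27 in line 2, 0.25 in line 4, -0.16 in line 8 and -0.41 in line 11. In line 4, 10 of 15 genes were higher without IWR-1, and in lines 2 and 11, 12 of 15 were lower. HOXD3 was 0.95 in line 4 and between -1.48 and -0.16 in the others, and HOXC8 was 1.34 in line 4 and between -0.75 and 0.30 in the others. The difference between lines was not tested, since each has 1 well per medium.

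**Figure D5:**
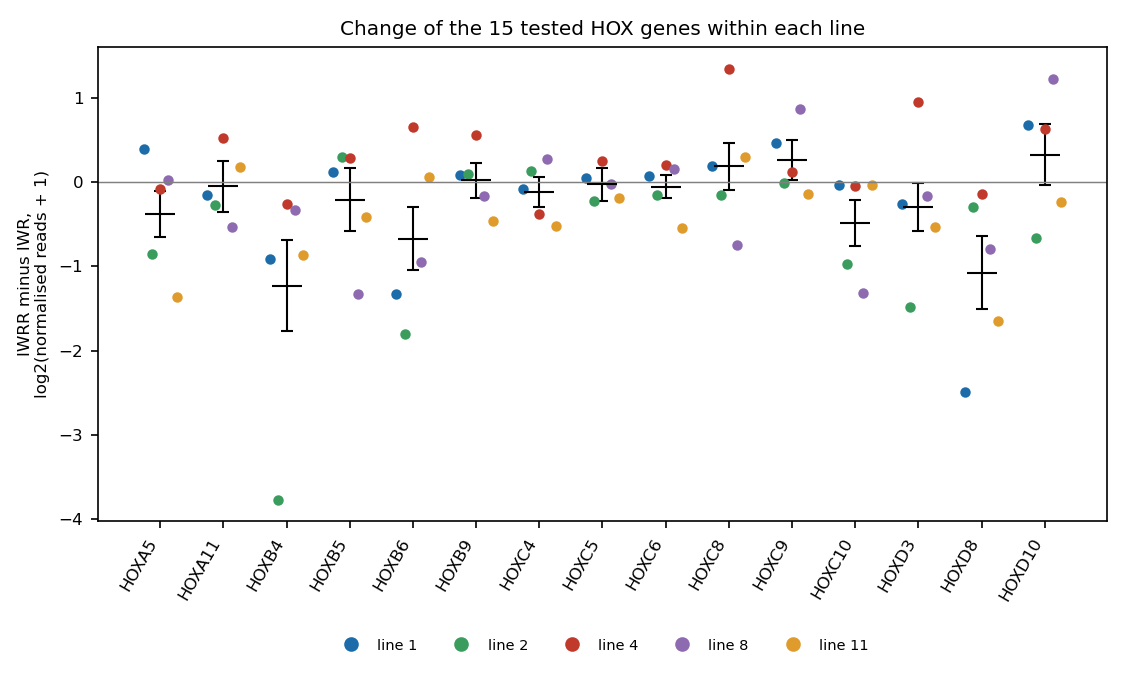
Log2 difference without minus with IWR-1 for the 15 tested HOX genes; dots are the 5 lines and bars the limma mean ± SE. Most bars include or lie near 0, and the line 4 dot is above 0 for HOXC8 (1.34) and HOXD3 (0.95).

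The mouse reads per bovine read were lower without IWR-1 in every line, by a ratio of 0.88, 0.80, 0.96, 0.79 and 0.73 in lines 1, 2, 4, 8 and 11. The summed HOX level had ratios of 0.97, 0.73, 1.22, 0.98 and 0.73 in the same order. Counted per mouse read these became 1.10, 0.85, 1.27, 1.22 and 1.01. With the mouse share as a covariate, the median log2 difference over the 15 genes was 0.33, with 10 genes above 0, and none was called by limma. That fit called 0 of all 18506 genes, so the lack of HOX calls in it carries no information.

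The genes that work with or upstream of HOX were tested in the same fit, in which 1870 of all 18506 genes (10.1%) had an unadjusted limma p under 0.05. Of 9 cofactor genes of the PBX, MEIS and PKNOX families, 1 rose without IWR-1: MEIS2, by 0.51 ± 0.09 on the log2 scale (SE, limma adjusted p = 0.0292), and the median over the 9 was 0.00. This call was lost without line 1 (limma adjusted p = 0.149), line 8 (0.0548) or line 11 (0.165), with no filter (0.0811), and with no block or with the mouse share as a covariate (1.00 each). MEIS2 stood at 6402 and 6999 normalised reads in line 4 and at 425 to 1212 in the other wells. MEIS1 stood at 1417 and 1383 in line 4 and at 135 to 624 elsewhere, with no call for the medium (0.14 ± 0.11). The cofactors MEIS1 and MEIS2 were thus highest in the line that also had the anterior HOX reads.

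Of 18 retinoic acid pathway genes limma, edgeR and DESeq2 called 0, with 6 at an unadjusted limma p under 0.05 and a median of 0.00. The smallest p-values belonged to the retinol transporter STRA6 (0.45), the degrading enzyme CYP26C1 (0.29) and the synthesis enzymes ALDH1A3 (-0.63) and ALDH1A2 (0.74). Between lines this pathway differed in level. CYP26B1, a retinoic acid degrading enzyme, stood at 13224 and 11885 in line 4 and 22.3 to 116 elsewhere, while CYP26A1, of the same family, stood at 546 and 376 against 2996 to 5447. The synthesis enzyme ALDH1A1 stood at 359 and 357 against 23.6 to 95.2, and the receptor RARG at 2273 and 2546 against 7557 to 13856. These line 4 genes were picked after their values were seen.

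The chromatin regulators were not called for the medium by any of the 3 tools. Of 27 Polycomb genes 0 were called, 2 had an unadjusted limma p under 0.05, and the median was 0.01, the smallest p-values being those of PCGF5, PHF19, PHC2 and PCGF2. Of 13 trithorax genes and H3K27 demethylases 0 were called and 1 had an unadjusted limma p under 0.05, the demethylase KDM6A (-0.19 ± 0.06, limma adjusted p = 0.256). Values were below 0 for 12 of the 13, with a median of -0.06.

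Of 14 caudal and axial elongation genes 0 were called by the 3 tools, 4 had an unadjusted limma p under 0.05, and the median was 0.19. Those with the smallest p-values were NKX1-2 (0.94) and SP5 (1.18), genes of the tail bud, with LIN28A (0.17) and WNT5B (0.25). CDX4 was the sole ParaHox or CDX gene to pass the filter (0.45 ± 0.27). Of 12 genes that flank the clusters 0 were called, 2 had an unadjusted limma p under 0.05 (CALCOCO1 at -0.22 and CALCOCO2 at 0.14, followed by ATP5MC2 and SMUG1), and the median was -0.02. Of the 13 flanking genes with a row, 3 were highest in line 4 in both media (SKAP2, EVX1 and SMUG1) and 2 were lowest there (TAX1BP1 and CALCOCO1). Of the 12 tested, 2 were highest there, where 19.1% of all tested bovine genes were.

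As a check of the treatment, 7 of 17 Wnt/beta-catenin target genes rose (CCND1, MSX1, MSX2, NKD1, AXIN2, TCF7 and LGR5, limma) and all 17 were above 0, with a median of 0.61. Over all 18506 tested genes limma called 164 as higher. Of the 20 Wnt target genes with a row, 18 were highest in line 4 in both media. Of the 17 tested, 16 were, where 19.1% of tested genes were. Their sum was 24632 and 44094 in line 4 and 6411 to 12546 elsewhere. Among cell type markers, limma called as higher 2 of 22 fibroblast genes (TAGLN and ACTA2), 1 of 12 pluripotency genes (NANOG), 2 of 8 neural genes (MSX1 and PAX3), 4 of 6 trophectoderm genes (KRT18, KRT8, TEAD4 and KRT19), 1 of 6 endoderm genes (PRDM1) and 0 of 9 mesoderm genes (1 at an unadjusted limma p under 0.05, 0 by edgeR and 1 by DESeq2). No gene of these lists was called as lower by limma. The edgeR counts were the same in each list. In either direction, DESeq2 called 6 fibroblast, 3 pluripotency, 3 neural, 4 trophectoderm and 1 endoderm genes, and 11 Wnt target genes. Their part in the HOX values was not tested.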

How the data were processed

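Deposited values were a signal: read counts that the authors had divided by a size factor per library, by a method not given in the sources used here. Tools listed by the submitters' processing notes are featureCounts 1.5.0-p3, StringTie 1.3.3b, HISAT2 2.0.5 and fastp. Whole reads were recovered from the steps of low values: 100% of values above 0 came out whole in every library (tolerance 0.01). The main test was limma 3.58.1 with an intensity trend on log2(value + 1), with line as a block, genes of at least 10 in 5 libraries or more, and Benjamini-Hochberg adjustment over 18506 genes (called under 0.05). Differences are on the log2(value + 1) scale, which understates changes of low genes. Alternatives, run in R 4.3.3, were DESeq2 1.42.0 and edgeR 4.0.16 (quasi-likelihood), each on recovered reads, beside other pseudocounts, filters, TMM, the mouse share as covariate, no block, and each line left out.

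The series' design splits each line over both media, and wells of 1 line deviated together from the group means (correlation 0.62 to 0.88), so line was the block. On simulated data over 18506 genes the test recovered 68% of genes changed 1.5-fold and 84% of those changed 2-fold, with 9 false calls. The changed genes were drawn from all 18506, so recovery was not measured for the HOX genes, most of which had low counts. With a filter of 50 in place of 10, 15062 genes remained but only 3 of the 15 HOX genes. Of the bovine IDs, 24660 of 27590 matched a symbol in the RefSeq table (ARS-UCD2.0), and 2 mouse columns without a sample were not used. One gene with a row is left out and not reported here. The other HOX genes are named; from each list the called genes are named, or up to 4 with the smallest p. The members and the lists were chosen with earlier results of these data known, and the lists share some genes.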

Additional observations from a re-analysis of the deposited data

Results flagged for a closer look

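In each medium, the 5 lines were checked for a highest or lowest well whose gap to its neighbour exceeded 0.71 of the group's range. The 52 groups checked were the 22 HOX genes that reached 10 normalised reads in a well and the 4 cluster sums, and chance alone marks about 1 in 20 groups. Of the 22 wells that stood apart, 21 were of line 4, but this count cannot be read against chance. HOXA2, HOXA3, HOXA7, HOXB1, HOXB2 and HOXB3 reached 10 in line 4 only, which largely fixed their 10 wells, and the HOXA and HOXB sums repeat these genes. Among the other 16 genes (32 groups), 6 wells stood apart, 5 of them of line 4. When reads were counted per mouse read, 13 groups had a well that stood apart.

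The anterior genes stood apart in line 4 in both media, with normalised reads with and without IWR-1 of 133 and 110 for HOXA2 and 3.57 and 28.9 for HOXA3, the first of which is 3 reads. HOXB1 stood apart at 17.8 and 62.3, HOXB2 at 199.9 and 207, and HOXB3 at 61.9 and 66.9. Without IWR-1, line 4 also stood apart for HOXB9 (87.7), HOXC5 (98.1), HOXC6 (399) and HOXC8 (147), and with IWR-1 for HOXC9 (58.3). The sums over the members did so for HOXA (262 and 280.5) and HOXB (401 and 495) in both media, and for HOXC (875) and HOXD (220.4) without IWR-1. The single well of another line was line 11 with IWR-1 for HOXC13 (31.1).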

How the results depend on the processing

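The number of HOX genes called stayed at 0 in every setting run, with 3 to 33 of them tested, and the smallest adjusted p of a HOX gene over all settings was 0.351. In the DESeq2 setting some of them had no adjusted p, HOXB4 and HOXD8 included, and could not be called. The fit with no replicate block and the fit with the mouse share as a covariate also called 0 HOX genes. Both called 0 of all bovine genes, where the main fit called 176, so their 0 HOX calls carry no information. The median difference over the HOX genes was 0.33 with the mouse share as a covariate and -0.21 to -0.02 with each line left out. Of 190 values of single HOX genes under an alternative, 176 kept their sign and 14 turned. With the covariate these were HOXA5 (0.56), HOXA11 (0.16), HOXB5 (0.33), HOXC5 (0.26), HOXC6 (0.38) and HOXD3 (0.61). With a line left out HOXA11 ran from -0.19 to 0.069 (0.0041 without line 2, highest without line 8), HOXB5 from -0.29 to 0.070 (highest without line 8), HOXB9 from -0.12 to 0.14 and HOXC8 from -0.10 to 0.42 (both lowest without line 4), HOXC5 from -0.10 to 0.022 (highest without line 2, 0.013 without line 11) and HOXC6 from -0.12 to 0.066 (highest without line 11). None of these values passed the threshold, and the cause was not tested. Calls over all bovine genes were 53 with no filter, 422 by DESeq2, 0 with the covariate, and 36, 182, 101, 155 and 31 without line 1, 2, 4, 8 and 11. Counts under 100 reads limit HOXB4, HOXC13 and most members below the filter.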
